A study of Mus with 12 samples.

Results

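Kidneys of Apobec1 knockout (KO) mice were compared with kidneys of wild type (WT) mice that had received saline alone, which shows how the genotypes differed before any cisplatin injury. The comparison uses 6 of the 12 arrays of the series, 3 labelled KO control and 3 labelled WT control, and takes in all 19505 genes that have a symbol, each read by 1 probe set. All mice were male, 6 months old and of C57Bl/6j background. The paper names a commercial breeder for the WT mice of its chronic model. For its acute model, to which these arrays belong, it names no source of WT mice. The homozygous KO mice had been backcrossed to C57BL6J. Whether WT and KO mice shared an origin is not stated there, so that genotype and origin cannot be told apart. The other 6 arrays, WT AKI and KO AKI, come from mice that were taken 3 days after cisplatin at 15 mg/kg, where AKI stands for acute kidney injury. They share the estimate of the spread and serve as separate samples in which the same genes were read again. Each array stands for a separate mouse according to the labels, and p-values measure the spread between these arrays. The sources used here do not give the hour at which the kidneys were taken.

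APOBEC1 is a cytidine deaminase that converts a cytidine of Apolipoprotein B mRNA to uridine and so creates a stop codon, from which the short form of the protein, ApoB48, is made. In mice it acts in the small intestine and the liver together with RNA-binding cofactors, and in the intestine it also edits the untranslated ends of other transcripts. An expression array reads how much of a transcript is present and not whether it was edited.

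Signals are given on the log2 scale, on which a difference of 1 is a doubling. The median log2 signal of the 6 control arrays lay between 5.79 and 5.85, and 45.2% to 46.8% of the genes lay above background, which is the 95th percentile of 23 probe sets that match no mouse transcript. The background itself lay between 6.15 and 6.37 on these arrays. Over all genes the median SD between the 3 arrays of a group was 0.229 in WT control and 0.232 in KO control, and the median difference between the groups was -0.004. The 95% confidence interval of a gene's difference had a median half-width of 0.53. Differences well under that size were not detectable with 3 arrays in each group. The interval is not adjusted for the number of genes, and a call after adjustment needs a larger difference at the same spread. A gene that was not called is not thereby shown to be unchanged.

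Apobec1 did not separate the genotypes in the direction of its label. Its log2 signals were 7.18, 6.63 and 7.33 in WT control, and those labelled KO control had 7.58, 7.50 and 7.66. All 6 signals lay above background, and the 3 arrays labelled KO control lay above the 3 of WT control. The difference was 0.54 (standard error 0.44, 95% confidence interval -0.41 to 1.48, adjusted p = 0.946 from limma). The authors state that genotyping and mRNA levels bore out the disruption in their KO mice. They also report no APOBEC1 staining in kidneys of cisplatin-treated KO mice. Neither the part of the gene that these probes read nor the part disrupted in the KO mice is given in the sources used here. For that reason the signal does not check the labels, and how it relates to the authors' checks was not tested. KO control therefore means the arrays that carry this label, here and in each direction given below.

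The partners of APOBEC1 and its known targets showed no called difference. A1cf, the first cofactor of ApoB editing to be described, had log2 signals of 14.67, 14.23 and 14.61 on WT control and 15.17, 14.71 and 15.34 on KO control (difference 0.57, standard error 0.55, adjusted p = 0.961 from limma). Rbm47, a cofactor that can replace it, differed by 0.13 (standard error 0.22, adjusted p = 0.984 from limma). Over the 7 measured genes of the editing complex, differences ranged from -0.08 to 0.57. Apob itself had signals of 14.29, 14.63 and 14.58 on WT control and 15.10, 15.08 and 14.64 on KO control. The highest WT control array lay just below the lowest KO control array, and the difference of 0.44 did not pass the test (95% confidence interval -0.11 to 0.99, adjusted p = 0.889 from limma). Among 13 transcripts known as APOBEC1 targets in mouse intestine, the median difference was 0.02, and the lowest was that of Cd36, a fatty acid carrier of the cell surface. Cd36 had signals of 15.22, 14.68 and 15.27 on WT control and 14.44, 14.03 and 14.66 on KO control, a difference of -0.68 (standard error 0.33, adjusted p = 0.834 from limma).

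Across the 19505 genes, 10 passed an adjusted p under 0.05 in limma, which is 0.0513% of those tested. The 2 upregulated genes (0.0103%) were Jchain and Ide. The 8 downregulated genes (0.041%) were Bcat1, Slc22a7, Ciart, Entpd4, Dera, Myo5a, Rnf24 and Klrb1c. At an unadjusted p under 0.01 and more than 2-fold apart stood 101 genes (0.518%), of which 46 were higher (0.236%) and 55 lower (0.282%) in KO control. An unadjusted p under 0.05 held for 1203 genes (6.17%), 623 higher (3.19%) and 580 lower (2.97%). The 3 arrays of one group lay entirely above or below those of the other for 2853 genes (14.6%), 1415 of them higher (7.25%) and 1438 lower (7.37%).

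**Figure D1:**
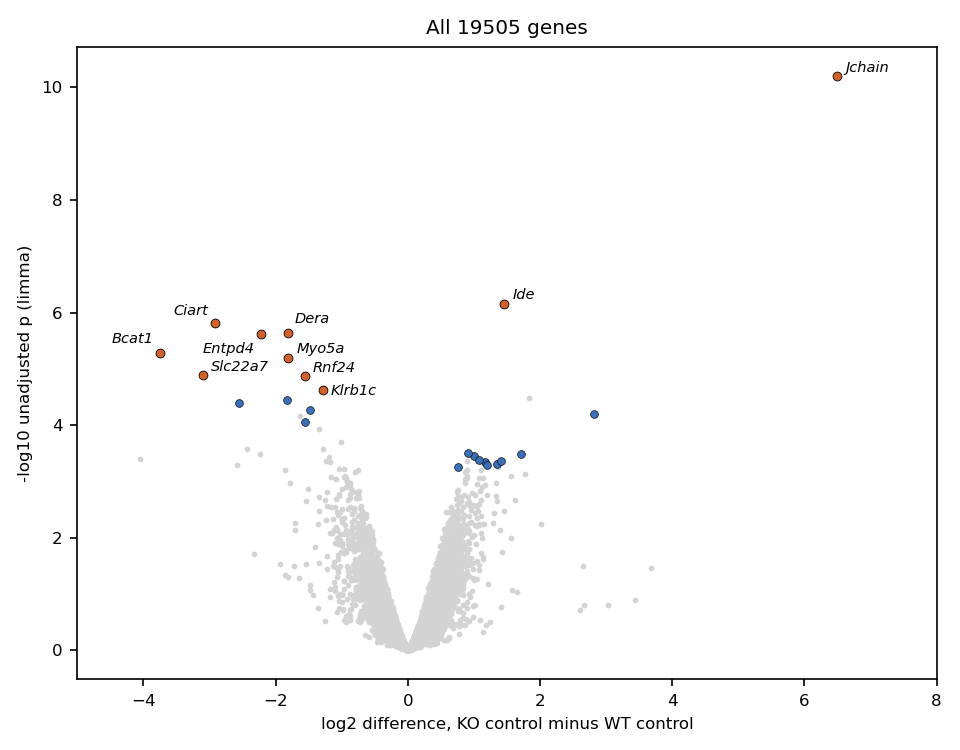
Each point is 1 of 19505 genes, with the log2 difference (KO control minus WT control) on the horizontal axis and the negative log10 of the unadjusted p from limma on the vertical axis. Orange points are the 10 called genes, with Jchain alone at the right at 6.49, and blue points are the 14 next genes by p under the rule for named genes.

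Jchain, the joining chain that links the subunits of secreted IgA and IgM, had the largest difference of all genes. Its log2 signals were 7.67, 8.13 and 8.31 on WT control and 14.40, 14.29 and 14.90 on KO control. Every array lay above background, and the gap between the groups was many times the range within either of them. The difference was 6.49 (standard error 0.36, adjusted p = 1.21e-06 from limma). The other genes that mark B cells and plasma cells did not show such a gap. The summed linear signal of the 20 measured markers, Jchain included, was 20329 to 26786 on WT control and 48998 to 61832 on KO control, and 15 of the 20 lay above background on none of the 6 arrays. Because the sum holds Jchain and is carried by the few markers above background, it measures neither the other markers nor B cell content. Cd79a, part of the B cell receptor, had signals of 4.61, 4.70 and 4.66 on WT control and 4.84, 4.62 and 5.11 on KO control. Mzb1, a chaperone of antibody-secreting cells, had 3.29, 3.34 and 3.53 on WT control and 3.64, 4.11 and 3.76 on KO control. Both lay below background on all 6 arrays. Ms4a1, which encodes CD20, was also below background throughout, with signals between 2.91 and 3.88.

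No other gene of this list passed the adjusted test. Prdm1, a transcription factor of plasma cell formation, and Fkbp11, a folding enzyme of secretory cells, lay below background on all 6 arrays, so that no difference is given for them. Ebf1, a transcription factor of B cells that other cells also use, had signals of 9.90, 10.03 and 9.69 on WT control and 10.58, 10.18 and 10.99 on KO control (difference 0.71, standard error 0.23, adjusted p = 0.605 from limma). At an unadjusted p under 0.05, 3 of the 20 markers were higher and 1 lower, against 3.19% and 2.97% of all genes. Prdm1 and Fkbp11 were among those that passed, and the median difference of the list was 0.15. Pigr, the receptor that carries Jchain-bearing antibodies across epithelia, had signals of 13.77, 13.04 and 13.55 on WT control and 14.49, 14.25 and 12.23 on KO control, and the groups overlapped.

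Ide, a protease that degrades insulin, was the other upregulated gene. Its log2 signals were 12.76, 12.90 and 12.97 on WT control and 14.48, 14.16 and 14.37 on KO control. The 2 groups were separated by more than 1 on the log2 scale and each spread over less than 0.33. The difference was 1.46 (standard error 0.17, 95% confidence interval 1.10 to 1.83, adjusted p = 0.00675 from limma).

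The downregulated genes included 3 enzymes and 1 carrier of small molecules, Bcat1, Entpd4, Dera and Slc22a7. Bcat1, which transfers the amino group of leucine, isoleucine and valine in the cytosol, had signals of 10.98, 11.29 and 11.26 on WT control and 7.05, 8.29 and 6.94 on KO control. The lowest WT control array exceeded the highest KO control array by more than 2.6, with KO control replicate 2 nearest to WT control. The difference was -3.75 (standard error 0.52, adjusted p = 0.017 from limma). Of 18 measured genes of branched-chain amino acid breakdown, Bcat1 alone passed the test, 13 of the 18 lay higher in KO control, and the median difference was 0.11. Without KO control replicate 2, 9 of 18 lay higher, with a median of 0.03.

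Entpd4, a nucleotide phosphatase of the Golgi apparatus and lysosomes, had signals of 16.87, 16.76 and 16.90 on WT control and 14.44, 14.76 and 14.68 on KO control. The WT control arrays agreed to within 0.14 and lay apart from every KO control array. The difference was -2.22 (standard error 0.29, adjusted p = 0.00929 from limma). The annotation also holds a closely related gene, Entpd4b, and it is uncertain which copy the probes read.

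Dera, an aldolase of deoxyribose phosphate breakdown, had signals of 10.74, 10.62 and 10.22 on WT control and 8.26, 9.14 and 8.74 on KO control, with no overlap. The difference was -1.81 (standard error 0.23, adjusted p = 0.00929 from limma). Slc22a7, the organic anion transporter OAT2, had signals of 11.49, 10.90 and 11.49 on WT control and 7.15, 8.79 and 8.65 on KO control. KO control replicate 1 was the lowest array, and all 3 KO control arrays lay more than 2 below WT control. The difference was -3.10 (standard error 0.47, adjusted p = 0.0291 from limma). Of 24 measured organic anion and cation transporters, Slc22a7 was the only one called, and the list had a median difference of -0.17.

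Myo5a, a myosin that carries vesicles along actin, had signals of 11.49, 11.17 and 11.74 on WT control and 9.56, 9.47 and 9.95 on KO control. The groups did not overlap, and the difference was -1.81 (standard error 0.25, adjusted p = 0.0176 from limma). Rnf24, a membrane protein with a RING finger, had signals of 10.82, 10.74 and 11.04 on WT control and 9.14, 9.63 and 9.14 on KO control (difference -1.56, standard error 0.24, adjusted p = 0.0291 from limma). Klrb1c, which encodes the NK cell antigen NK1.1, had signals of 5.10, 5.19 and 4.79 on WT control and 3.59, 4.02 and 3.62 on KO control (adjusted p = 0.0473 from limma). All 6 of its signals lay below background, so no fold is given. The 12 measured NK cell markers, Klrb1c included, all lay below background on all 6 arrays, with summed linear signals of 203 to 231 on WT control and 188 to 227 on KO control.

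**Figure D2:**
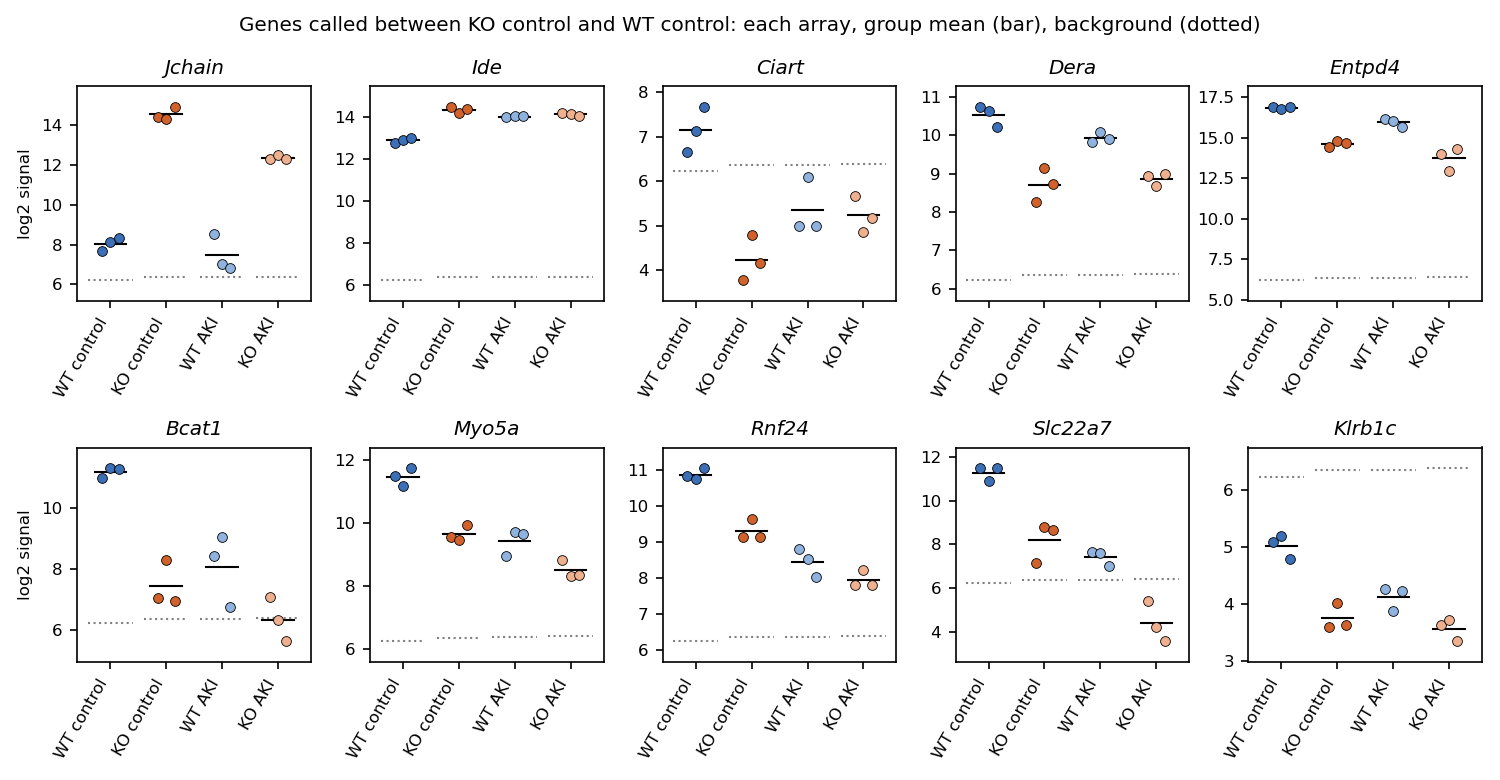
The 10 called genes, with the log2 signal of each array on the vertical axis, 1 column for each of the 4 groups, group means as bars and the mean background of the group as a dotted line. The KO control arrays of Jchain lie between 14.29 and 14.90 above all WT control arrays, and the arrays of Klrb1c lie below background in every group.

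The calls depended on the arrays used. Without KO control replicate 1 only Jchain was called. Without WT control replicate 1 Jchain and Ciart were called, and without WT control replicate 3 Jchain, Ide and Dera. Without WT control replicate 2 the count was 8, of which 5 were among the 10, and Ccl28, Havcr1 and Kdr were called in addition. Without KO AKI replicate 2, which enters only through the shared spread, the count was 27 and held all 10. All 10 genes kept their direction in every alternative.

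The 6 arrays of cisplatin-treated mice gave a separate reading of these 10 genes. There, 95 of the 19505 genes were called between KO AKI and WT AKI (0.487%), and 3 of the 10 genes were among them in the same direction, namely Jchain, Entpd4 and Slc22a7. All 10 differences after cisplatin had the sign of the saline comparison, and 9 of 10 without WT AKI replicate 2 or without KO AKI replicate 2. Klrb1c lay below background in every group and Ciart on all 6 AKI arrays, so the signs of these genes carry no reading. The count of 3 was 1 without WT AKI replicate 2 and 6 without KO AKI replicate 1.

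Jchain had signals of 8.51, 7.05 and 6.84 on WT AKI and 12.28, 12.46 and 12.29 on KO AKI (difference 4.88, adjusted p = 4.89e-05 from limma). Entpd4 had signals of 16.13, 16.04 and 15.66 on WT AKI and 13.96, 12.94 and 14.28 on KO AKI, a difference of -2.21 beside the -2.22 under saline (adjusted p = 0.0102 from limma). Slc22a7 had 7.67, 7.59 and 6.99 on WT AKI and 5.41, 4.22 and 3.55 on KO AKI (difference -3.03, adjusted p = 0.0162 from limma). The 3 KO AKI signals of Slc22a7 lay below background, so the size of that difference was read partly against background.

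For Ide the difference after cisplatin was small beside that under saline. Ide had signals of 13.98, 14.03 and 14.02 on WT AKI and 14.19, 14.14 and 14.05 on KO AKI, all near the KO control level (difference 0.11, adjusted p = 0.822 from limma). The test of whether the genotype difference itself changed with cisplatin gave -1.35 (adjusted p = 0.0691 from limma). That test called 6 of the 19505 genes (0.0308%), 2 with a higher difference after cisplatin (0.0103%) and 4 with a lower one (0.0205%). Ide did not pass its threshold. Ciart lay below background on all 6 AKI arrays, with signals between 4.86 and 6.10, so its difference after cisplatin could not be read. Bcat1, Dera, Myo5a and Rnf24 lay lower in KO AKI by 0.51 (Rnf24) to 1.73 (Bcat1) on the log2 scale, none of them called.

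Just past the threshold stood genes of varied function, none of which passed the adjusted test. On the lower side the next were Hebp1, a heme-binding protein, Ccl28, a chemokine of epithelia, Lpl, the lipase that releases fatty acids from lipoproteins, and Kyat1, a kynurenine aminotransferase. Hebp1 had signals of 11.85, 11.78 and 11.60 on WT control and 10.06, 10.21 and 9.45 on KO control (difference -1.84, adjusted p = 0.0575 from limma). Ccl28 had 10.85, 9.37 and 11.28 on WT control and 7.86, 8.45 and 7.56 on KO control (difference -2.55, adjusted p = 0.0598 from limma). WT control replicate 2 stood nearest to KO control for this gene. Kyat1 differed by -1.56 (adjusted p = 0.0993 from limma). Separated control arrays were a condition for naming these genes and the next on the higher side. The separation is therefore no added support.

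On the higher side the genes after Ide and Jchain were the clock gene Arntl, described below, and then, among others, Tox3, a nuclear protein, Gsta2, a glutathione transferase, Etl4, Ttc30b, a protein of ciliary transport, Azgp1, a secreted lipid-binding glycoprotein, Kdr, Esm1, a proteoglycan of endothelial cells, and Tjp1, the tight junction protein ZO-1. From Tox3 to Tjp1 the adjusted p lay between 0.264 and 0.281 in limma. Azgp1 had signals of 13.52, 13.41 and 13.24 on WT control and 14.71, 14.28 and 14.67 on KO control (difference 1.17, standard error 0.25). Tjp1 was the smallest of these differences and the tightest, with 9.99, 9.89 and 10.05 on WT control and 10.82, 10.58 and 10.81 on KO control (difference 0.76, standard error 0.17). Outside this ranking, the lowest difference of all genes belonged to the predicted gene Gm6300, with 12.70, 10.77 and 12.59 on WT control and 6.94, 6.35 and 10.62 on KO control (difference -4.05, standard error 0.87, adjusted p = 0.264 from limma). Akr1c18, a steroid-converting enzyme, had 10.08, 9.91 and 9.84 on WT control and 7.11, 6.86 and 9.18 on KO control (difference -2.23, adjusted p = 0.264 from limma). In both genes KO control replicate 3 lay nearest to WT control, and without it both were called, Gm6300 at -5.37 and Akr1c18 at -2.96 (adjusted p = 0.00381 and 0.00199 from limma).

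Genes of the circadian clock were placed at both ends of the comparison. In the clock, ARNTL (BMAL1) pairs with CLOCK or NPAS2 to switch on the Per and Cry genes, Ciart and output genes such as Dbp, whose products in turn repress the pair or pass the rhythm on. In most mouse tissues the RNA of Arntl and Npas2 peaks at a time of day opposite to that of Per and Dbp. Ciart, a repressor of the pair, had signals of 6.65, 7.13 and 7.67 on WT control and 3.78, 4.78 and 4.15 on KO control. Each KO control array lay below background and each WT control array above it, so the difference is a bound of at least 1.74-fold (adjusted p = 0.00929 from limma).

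Arntl had signals of 4.62, 5.55 and 5.53 on WT control, all below background, and 8.42, 7.63 and 8.11 on KO control, all above it. It was at least 3.54-fold higher in KO control, with an adjusted p of 0.0823 from limma. Npas2 had 4.97, 5.11 and 4.82 on WT control and 7.42, 6.30 and 6.65 on KO control, of which 2 of 3 lay above background (at least 1.47-fold, adjusted p = 0.0575 from limma). Arntl and Npas2 thus lay apart from WT control on every array without passing the adjusted test. With only the 6 control arrays in the fit, both passed it.

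The Per genes lay on the lower side. Per1 had signals of 5.95, 6.51 and 5.95 on WT control and 4.85, 5.33 and 4.56 on KO control (adjusted p = 0.381 from limma), below background on all but 1 array. Per2 had 7.39, 8.20 and 7.29 on WT control and 6.51, 6.62 and 6.74 on KO control (adjusted p = 0.605 from limma). Per3 had 9.88, 10.57 and 9.96 on WT control and 8.76, 8.97 and 9.49 on KO control (difference -1.06, adjusted p = 0.762 from limma). For all 3 genes the groups did not overlap and WT control replicate 2 was the highest array. Of the remaining core genes, Clock differed by 0.42, with the arrays apart, and Cry1, Cry2, Nr1d1, Nr1d2, Rora, Csnk1d and Csnk1e overlapped between the groups.

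At an unadjusted p under 0.05, 2 of the 14 measured core clock genes were higher and 4 lower in KO control, and 4 of 11 clock output genes were lower and 0 higher, against 3.19% of all genes higher and 2.97% lower. The count of lower core genes was 2 without WT control replicate 2. Dbp, a transcription factor driven directly by the clock, had signals of 14.92, 15.44 and 15.33 on WT control and 13.04, 13.87 and 13.20 on KO control (difference -1.86, standard error 0.85, adjusted p = 0.798 from limma). Usp2, a deubiquitinase with a strong daily rhythm, had 11.99, 12.25 and 11.84 on WT control and 9.80, 10.75 and 10.56 on KO control (difference -1.66, adjusted p = 0.817 from limma). Both were separated between the control groups by more than 1 on the log2 scale, while the standard errors carry the wider spread of the AKI arrays. Coq10b, a ubiquinone-binding protein, differed by -1.01, Tsc22d3, which encodes the glucocorticoid-induced leucine zipper GILZ, by -1.15 and Wee1, a kinase that restrains mitosis, by -0.96 (adjusted p = 0.201, 0.605 and 0.605 from limma). The median of the output genes was -0.64, against -0.004 over all genes, and it ranged from -0.83 to -0.38 when 1 control array was left out, with -0.41 without WT control replicate 1 and -0.38 without KO control replicate 3.

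**Figure D3:**
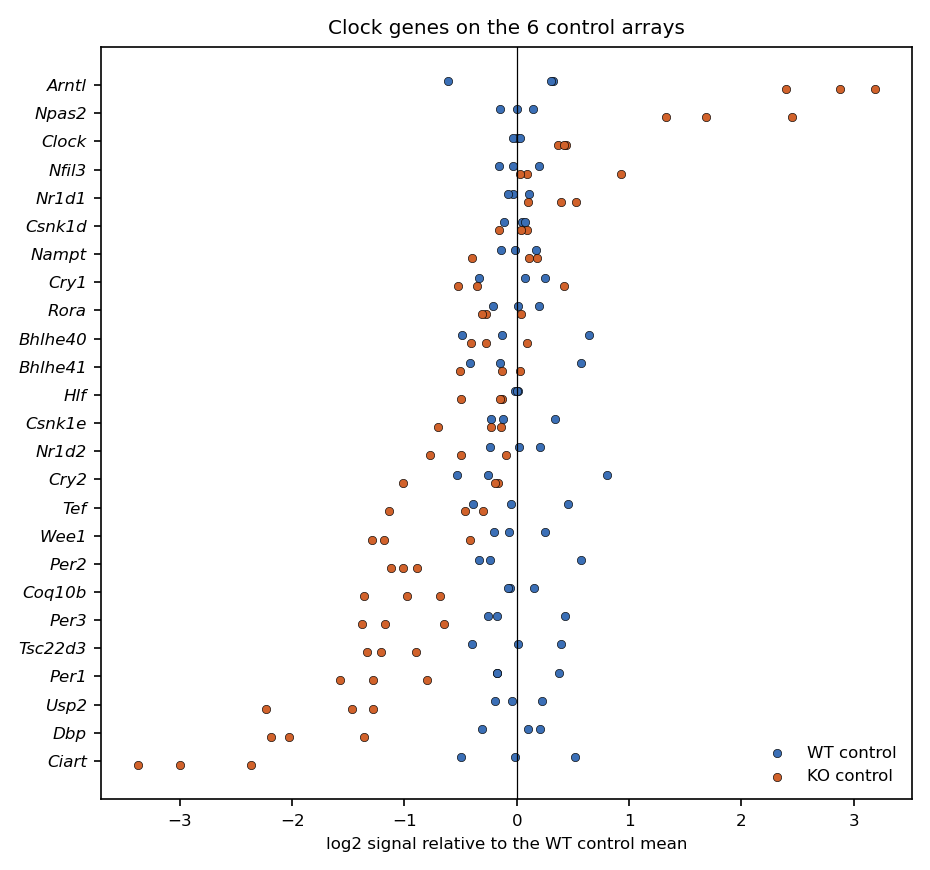
Clock genes and clock output genes on the 6 control arrays, with the log2 signal relative to the WT control mean on the horizontal axis, 1 row for each gene and 1 point for each array (blue WT control, orange KO control). Arntl and Npas2 stand to the right on all KO control arrays, and Ciart, Dbp and Usp2 stand to the left, where all 3 KO control arrays of Ciart lie below background.

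Markers of endothelial cells lay higher in KO control as a group. At an unadjusted p under 0.05, 8 of 11 measured markers were higher and 0 lower, against 3.19% of all genes higher, and none was called at an adjusted p under 0.05. In whole kidney RNA, more cells of a type and more RNA in each of its cells cannot be told apart. Kdr, the main receptor for VEGF, had signals of 10.66, 11.65 and 10.40 on WT control and 11.90, 12.30 and 12.57 on KO control (difference 1.35, standard error 0.30, adjusted p = 0.274 from limma). Emcn, a sialomucin of capillaries, had 11.50, 12.16 and 11.42 on WT control and 12.36, 12.61 and 12.55 on KO control (difference 0.82, adjusted p = 0.404 from limma). Ehd3, a marker of glomerular endothelium, lay below background on all WT control arrays with 5.42, 5.84 and 6.03 and above it on all KO control arrays with 6.64, 6.75 and 7.27 (at least 1.57-fold, adjusted p = 0.357 from limma). In each of these genes WT control replicate 2 or 3 came nearest to KO control, and no array crossed over.

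Tek, the receptor for angiopoietins, differed by 1.05 and Cdh5, the cadherin of endothelial junctions, by 1.08 (adjusted p = 0.46 and 0.573 from limma). Over the 11 markers the median difference was 0.90, and it stayed between 0.80 and 1.16 when 1 control array was left out. Their summed linear signal was 8260, 13863 and 7638 on WT control and 16421, 19797 and 21423 on KO control. WT control replicate 2 lay between the other WT control arrays and KO control. The median difference was 0.06 over 12 genes of fibroblasts, pericytes and smooth muscle. It was 0.17 over 8 genes of podocytes and glomerulus, of which 7 lay higher and 3 lay above background on none of the 6 arrays. Among genes above background on at least 3 of the 6 control arrays, the medians were -0.24 over 9 and 0.25 over 4 genes, against 0.98 over 10 endothelial markers. After cisplatin the median over the endothelial markers was 0.04.

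Genes of tubule injury lay mostly lower in KO control before any cisplatin was given, in 15 of 20 measured. At an unadjusted p under 0.05, 6 of the 20 were lower and 0 higher, against 2.97% of all genes lower, with a median difference of -0.38, and none was called. Without KO control replicate 1 the count of 6 was 3, and the median was -0.23 without WT control replicate 1 and -0.25 without WT control replicate 2. Havcr1, which encodes kidney injury molecule 1 (KIM-1), had signals of 12.19, 10.01 and 11.72 on WT control and 9.25, 9.08 and 8.29 on KO control (difference -2.43, standard error 0.50, adjusted p = 0.249 from limma). WT control replicate 2 stood apart from the other WT control arrays, and without it the difference of Havcr1 was -3.08 and was called (adjusted p = 0.0297 from limma). Clu, clusterin, had 14.85, 14.01 and 15.42 on WT control and 13.91, 13.68 and 12.91 on KO control (difference -1.26, adjusted p = 0.414 from limma). Lcn2, the lipocalin NGAL, had 7.93, 7.23 and 8.41 on WT control and 6.31, 6.90 and 6.31 on KO control, where only 1 of 3 arrays was above background (difference -1.35, adjusted p = 0.761 from limma).

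After cisplatin these genes stood the other way round. Havcr1 had signals of 17.73, 16.64 and 16.45 on WT AKI and 18.66, 19.51 and 18.75 on KO AKI (difference 2.04, adjusted p = 0.0767 from limma). The test of the change in its genotype difference gave 4.47 (adjusted p = 0.0524 from limma). For Lcn2 that change was 5.09 and passed the threshold (adjusted p = 0.0478 from limma), with signals of 15.30, 13.19 and 14.51 on WT AKI and 17.05, 19.25 and 17.93 on KO AKI. The saline and cisplatin differences of a list share no arrays, and 20 of the 20 injury genes lay higher in KO AKI than in WT AKI, where 5 of 20 lay higher under saline.

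Other lists of stress and growth genes held no called gene. Of 25 measured NRF2 targets and antioxidant genes, 3 were higher at an unadjusted p under 0.05, against 3.19% of all genes, 0 lower, and the median difference was 0.08. These were Gsta2 and Gsta3, glutathione transferases of a family with closely related members that probes may not separate, and Nqo1, a quinone reductase. Gsta2 had signals of 13.30, 12.62 and 13.36 on WT control and 15.31, 14.92 and 14.16 on KO control (difference 1.71, adjusted p = 0.264 from limma). Nqo1 had 9.73, 9.03 and 9.32 on WT control and 11.02, 10.57 and 10.67 on KO control (difference 1.40, adjusted p = 0.605 from limma). Of 23 cell division genes, 6 were lower, against 2.97% of all genes, 0 higher, and the median was -0.34, although 13 of the 23 lay below background on all 6 arrays. Without WT control replicate 2 the median was -0.20, and without KO control replicate 3 the count of 6 was 3. The summed linear signal of the list ran the other way in part, with 21522 to 27577 on WT control and 24999 to 33625 on KO control. Mcm6, a subunit of the replicative helicase, was the member above background with the smallest p, with 9.69, 9.64 and 9.23 on WT control and 8.56, 8.32 and 8.70 on KO control (difference -0.99, adjusted p = 0.538 from limma). Heat shock genes lay lower in 8 of 8 measured members, where 9877 of all 19505 genes did, with a median of -0.40. At an unadjusted p under 0.05, 2 of the 8 were lower, against 2.97% of all genes. Without WT control replicate 3 the median was -0.21 and 7 of 8 lay lower, and KO control replicate 3 had the highest summed linear signal of the 6 arrays, 136809. Hspa1a, an inducible HSP70, differed by -0.69 (adjusted p = 0.573 from limma). Immediate-early genes, which respond within minutes to handling of a tissue, were above their own means on WT control replicate 2 (median 0.88) and KO control replicate 2 (median 0.45) and between -0.53 and -0.08 on the other 4 arrays. Their summed linear signal was 24191 on WT control replicate 2, 24271 and 21760 on KO control replicates 2 and 3, and 6704 to 9008 on the other 3 arrays, so high arrays were found in both genotypes.

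Genes of lipid uptake were mostly on the lower side under saline, but few passed the unadjusted threshold. Lpl had signals of 14.27, 13.59 and 14.25 on WT control and 12.28, 12.93 and 12.46 on KO control (difference -1.48, standard error 0.26, adjusted p = 0.075 from limma). After cisplatin Lpl was lower again in KO AKI, with 10.87, 11.34 and 10.67 on WT AKI and 9.77, 9.44 and 9.83 on KO AKI (difference -1.28, adjusted p = 0.0477 from limma). Of 17 measured genes of lipid uptake and lipid droplets, 12 lay lower, where 9877 of all 19505 genes did, with a median of -0.27. At an unadjusted p under 0.05, 1 of the 17 was lower, against 2.97% of all genes, and 0 higher. Of the 17, 5 lay above background on none of the 6 control arrays. After cisplatin 13 of the 17 lay higher in KO AKI, with a median of 0.69. Of 20 genes of fatty acid oxidation 16 lay lower, with a median of -0.24. At an unadjusted p under 0.05, 1 of the 20 was lower, against 2.97% of all genes. Without KO control replicate 1 the median was -0.14 with 13 of 20 lower, and without WT control replicate 1 it was -0.16 with 12 of 20. The gene past that threshold was Cyp4a14, an omega-hydroxylase of fatty acids, with 14.40, 14.24 and 14.25 on WT control and 12.78, 11.43 and 13.52 on KO control (difference -1.72, adjusted p = 0.762 from limma).

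Markers of fat tissue lay lower as well. Of 9 measured markers 3 were lower at an unadjusted p under 0.05, against 2.97% of all genes, and 0 higher. Among the 4 markers above background on at least 3 of the 6 control arrays, 1 was lower at that threshold, with a median of -1.21 over the 4. The median difference of all 9 was -1.18, and it ranged from -1.59 without KO control replicate 2 to -0.78 without KO control replicate 3. Adipoq, adiponectin, had signals of 8.56, 7.32 and 8.18 on WT control and 4.50, 6.97 and 4.81 on KO control (difference -2.59, standard error 0.57, adjusted p = 0.274 from limma). KO control replicate 2 lay close to WT control replicate 2, and without KO control replicate 2 the difference was -3.36 and was called (adjusted p = 0.0255 from limma). Adipoq lay below background on KO control replicates 1 and 3, so the size of both differences was read partly against background. Ucp1, the uncoupling protein of brown fat, had 7.33, 3.63 and 7.80 on WT control and 4.55, 3.48 and 3.74 on KO control. All its KO control signals and that of WT control replicate 2 lay below background. The summed linear signal of the 9 markers was 11332, 6192 and 10347 on WT control and 3878, 6073 and 2818 on KO control. Fat cells also express Lpl, Cd36 and Fabp4, and the part of fat tissue in the differences of those genes was not tested.

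**Figure D4:**
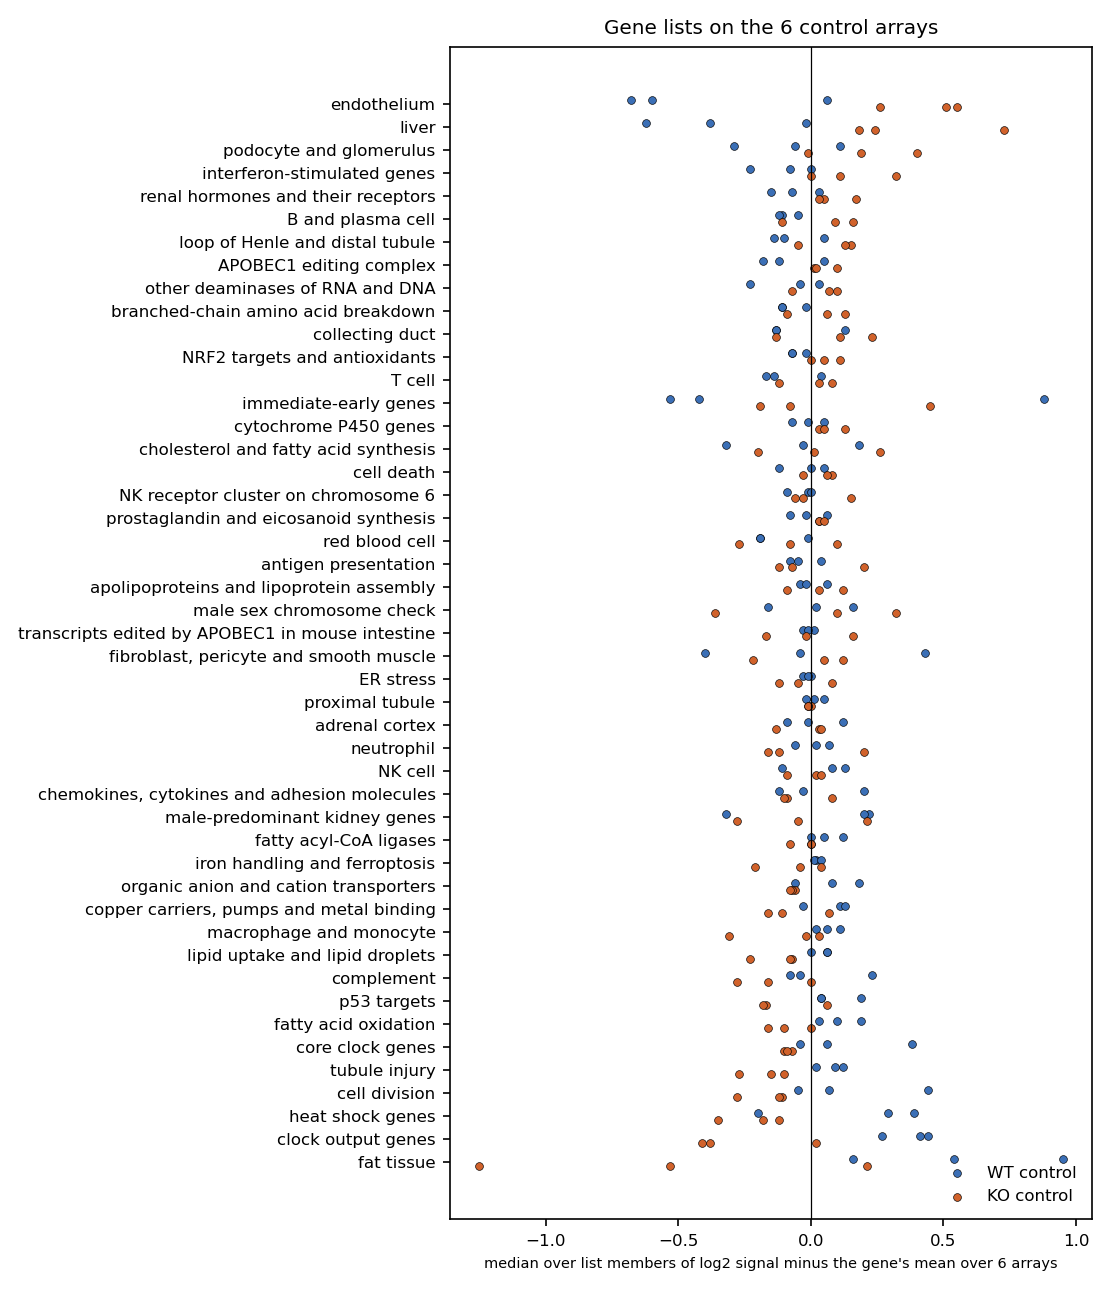
Gene lists on the 6 control arrays, with 1 row for each list and 1 point for each array (blue WT control, orange KO control). The horizontal axis gives the median over the list of the log2 signal minus the gene's own mean over the 6 arrays. Endothelial markers lie at 0.26 to 0.55 on KO control and at -0.68 to 0.06 on WT control, and fat tissue markers spread more widely than any other list, from -1.25 to 0.95.

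Among genes of hormone signalling and mineral handling, 4 of 21 measured were higher in KO control at an unadjusted p under 0.05, against 3.19% of all genes, 0 lower, and Ide was the one called. The count of 4 was 2 without WT control replicate 1. Igf1, insulin-like growth factor 1, had signals of 8.97, 9.40 and 8.48 on WT control and 9.94, 9.96 and 10.00 on KO control (difference 1.02, adjusted p = 0.46 from limma). Insr, the insulin receptor, had 11.97, 12.41 and 12.28 on WT control and 12.89, 12.98 and 12.73 on KO control (difference 0.65, adjusted p = 0.686 from limma). Cyp24a1, the enzyme that inactivates vitamin D, had 10.72, 11.66 and 10.87 on WT control and 13.27, 13.68 and 14.26 on KO control. The 2 groups of Cyp24a1 lay more than 1.5 apart, and the difference of 2.65 had a standard error of 1.11 (adjusted p = 0.762 from limma). That standard error carries the spread of KO AKI, whose SD was 3.29 against 0.50 in each control group, and with only the 6 control arrays in the fit Cyp24a1 was called. Vdr, the vitamin D receptor, had 11.32, 11.75 and 11.80 on WT control and 12.46, 12.08 and 12.29 on KO control (difference 0.66, adjusted p = 0.84 from limma).

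Genes of the tubule showed few differences past the unadjusted threshold. All 30 measured proximal tubule genes lay above background on all 6 arrays, and 0 had an unadjusted p under 0.05, with differences from -0.88 to 0.76 and a median of 0.00. Of 16 loop of Henle and distal tubule genes 1 was higher at that threshold, against 3.19% of all genes. It was Slc8a1, a sodium-calcium exchanger, with 10.12, 10.07 and 9.98 on WT control and 11.12, 11.14 and 11.12 on KO control (difference 1.07, adjusted p = 0.579 from limma). An equal-variance t-test on only the 6 control arrays called Slc8a1, and 0 of the 22 limma alternatives did. Slc12a3, the thiazide-sensitive sodium chloride cotransporter, had 16.10, 16.38 and 16.15 on WT control and 16.84, 16.73 and 16.54 on KO control (difference 0.49, adjusted p = 0.894 from limma). The 15 collecting duct genes had a median of 0.16 and 0 at that threshold.

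Immune lists held no called gene apart from Jchain and Klrb1c. Of 18 macrophage and monocyte genes 0 were higher and 1 lower at an unadjusted p under 0.05. Over all genes 3.19% were higher and 2.97% lower at that threshold. Of 25 interferon-stimulated genes 21 lay higher, where 9628 of all 19505 genes did, with a median of 0.21. Of these 25, 11 lay above background on none of the 6 arrays. At the unadjusted threshold 1 of the 25 was higher. That gene was Rsad2, viperin, with signals of 5.91, 7.18 and 7.04 on WT control and 8.16, 7.71 and 8.94 on KO control (difference 1.56, adjusted p = 0.305 from limma). Without WT control replicate 2 the count of interferon-stimulated genes was 4, and without KO control replicate 1 it was 3. Of 15 complement genes 1 was higher and 3 lower, against 3.19% and 2.97% of all genes, and the median was -0.08. C7, a part of the membrane attack complex, had signals of 8.41, 9.20 and 8.16 on WT control and 7.48, 7.38 and 8.13 on KO control (difference -0.93, adjusted p = 0.701 from limma). Without KO control replicate 1 the complement counts were 1 higher and 0 lower. All 12 neutrophil genes, 2 of them lower at that threshold, and 10 of 11 T cell genes lay below background on all 6 arrays.

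A pair of secreted proteins usually made in liver stood out by their spread between arrays. Alb, albumin, had signals of 8.10, 11.38 and 8.96 on WT control and 12.49, 13.75 and 13.25 on KO control (difference 3.68, standard error 1.57, adjusted p = 0.762 from limma). The control arrays of Alb did not overlap. It was called in 2 of 22 alternatives, without the KO AKI group and with the replicate block on only the 6 control arrays. Fgg, the fibrinogen gamma chain, had 9.81, 13.81 and 9.43 on WT control and 9.14, 9.35 and 9.14 on KO control, so that WT control replicate 2 alone was high (difference -1.81, adjusted p = 0.81 from limma). Over 8 liver genes the median difference was 0.65, and 1 was higher at an unadjusted p under 0.05, against 3.19% of all genes. Among the 5 above background on at least 3 of the 6 control arrays, the median was 0.1.

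Apobec1 lies on chromosome 6, and a gene disrupted in another strain can carry neighbouring chromosome along through backcrossing. Chromosome 6 held 3 of the 10 called genes among 1051 genes, and 12 genes past an unadjusted p of 0.01 with a fold over 2 (1.14%, against 0.482% of the genes on other chromosomes). Within 10 Mb of Apobec1 (gene starts of RefSeq on GRCm38.p6), 1 of 253 genes was called, Klrb1c at 6.2 Mb, and 2 (0.791%) passed the unadjusted threshold, Klrb1c and Zfp239, a zinc finger gene at 4.7 Mb, both below background. Between 10 and 25 Mb, 2 of 151 genes were called, Dera at 15.2 Mb and Bcat1 at 22.4 Mb. In that interval 5 genes (3.31%) passed the unadjusted threshold, the others being Hebp1 at 12.6 Mb, Mgp, matrix Gla protein, at 14.3 Mb and Pik3c2g, a lipid kinase, at 17.0 Mb. All 5 lie on the same side of Apobec1, while the interval counts genes on both sides.

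Mgp had signals of 12.09, 11.90 and 11.93 on WT control and 10.40, 11.17 and 10.99 on KO control (difference -1.12, adjusted p = 0.599 from limma). Pik3c2g had 9.41, 8.79 and 9.10 on WT control and 11.13, 10.69 and 11.52 on KO control (difference 2.01, adjusted p = 0.573 from limma) and was the only one of the 5 that lay higher. Beyond 25 Mb 5 of 646 genes (0.774%) passed it, among them Tril at 68.8 Mb and Vmn1r53 at 32.4 Mb. At 36.8 Mb, the acetyltransferase paralogs Nat8f5, Nat8f3 and Nat8f6 differed by -1.87, -1.34 and -1.36, and since these genes are close copies it is uncertain how their signals divide. The sequence of the KO chromosome was not analysed here, and whether a strain difference under the probes or near these genes takes part in their signals was not tested. The other 7 called genes lie on chromosomes 2, 3, 5, 9, 14, 17 and 19.

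**Figure D5:**
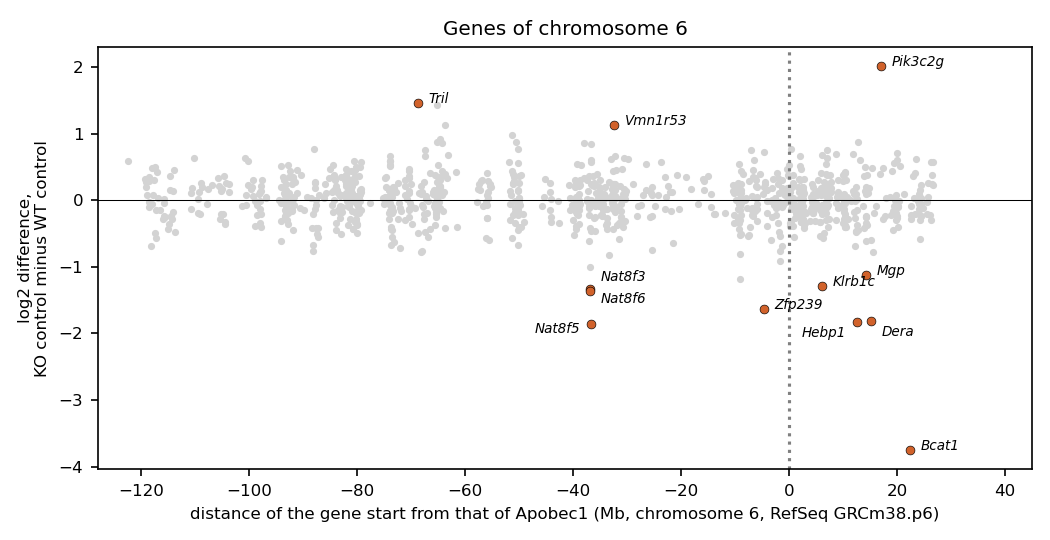
Genes of chromosome 6, with the distance of the gene start from that of Apobec1 in Mb on the horizontal axis (dotted line at Apobec1) and the log2 difference (KO control minus WT control) on the vertical axis. Orange points passed an unadjusted p of 0.01 with a fold over 2. Dera, Hebp1, Mgp, Pik3c2g and Bcat1 lie between 12.6 and 22.4 Mb on the same side of Apobec1, among many genes that did not pass.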

How the data were processed

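Each of 12 mouse kidneys gave 1 Clariom S array, with 3 arrays in each combination of genotype and treatment. The authors deposited log2 signals by probe set, and the submitters' processing notes name Transcriptome Analysis Console. Background correction, normalization, the console's version and any scan batch are not given in the sources used here, and the deposited log2 values were used without further scaling. Of 28846 probe sets, 6640 were array controls and 2634 had no symbol. For 55 genes with several, the one of highest mean was taken, which left out 67 and kept 19505 genes. Symbols come from the platform annotation, matched through Entrez IDs to RefSeq GRCm38.p6.

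limma 3.58.1 in R 4.3.3 fitted the means of the 4 groups to all 12 arrays (lmFit, eBayes, 8 residual and 5.6 prior degrees of freedom), with p-values adjusted by Benjamini-Hochberg over all genes. Sharing the spread over 4 groups lets the more variable AKI arrays widen the standard errors. The fit was also run on simulated data, whose outcome is not reported here and is not used as support. Where a gene was above background on no array of the dimmer group, its fold is a bound (at least), the brighter group's mean against the higher of signal and background in the dimmer group. Single genes were not tested by exact permutation, whose smallest p in this design is 0.1.

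Named genes were Apobec1, all called genes, up to 12 genes in each direction by p with separated arrays and signal above background, and up to 3 members of each list by p. A further 18 genes, such as Lcn2, Dbp, Usp2, Tek, Cdh5, Gm6300 and the B cell markers, were chosen after their values were seen, as was Pigr. Not every gene that the rule names is reported here. Members and lists were chosen with earlier results of these data known. Lists are described by counts and medians. Alternatives varied the arrays in the fit, weights, scaling, filters, probe sets and a block for the replicate number. Array measurements of other experiments, tissue staining and blood tests were not analysed here.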

Additional observations from a re-analysis of the deposited data

Results flagged for a closer look

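For 2 of the named genes the difference between KO and WT after cisplatin differed from that under saline by the interaction test of limma, which called 6 of 19505 genes (0.0308%). For Slc12a3, the thiazide-sensitive sodium chloride cotransporter, the change was -3.26 on the log2 scale (adjusted p = 0.0414 from limma). Its genotype difference was 0.49 under saline, with the 3 KO control arrays above the 3 WT control arrays, and -2.77 after cisplatin, with means of 10.89 in WT AKI and 8.12 in KO AKI. For Lcn2, the lipocalin NGAL, the change was 5.09 (adjusted p = 0.0478 from limma), from -1.35 under saline to 3.74 after cisplatin, and only 1 of 3 KO control arrays lay above background.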

How the results depend on the processing

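The number of called genes under saline, 10 in the analysis reported, was 21 with only the 6 control arrays (9 of the 10 among them), 37 without the KO AKI group and 35 with array weights (all 10 among both). It was 14 with trended robust priors, 9 with quantile normalization, 12 with median centring, 9 among genes above background and 10 with the mean of all probe sets. An equal-variance t-test on the 6 control arrays called 7 after Benjamini-Hochberg, of which Jchain alone was shared. At an unadjusted p under 0.01 and a fold over 2 it gave 57 genes against 101. The paper, which describes an analysis of variance for its arrays, reports more genes than either count at that p and fold. Leaving out 1 array gave 1 to 27 calls and 79 to 139 genes at that p and fold. The 3 genes also called after cisplatin became 1 to 6. Jchain was called in every alternative that used limma. Replicate numbers are shared by the groups, but the deviations of same-numbered control arrays correlated at 0.002, 0.088 and -0.016, so they were not taken as pairs. With the replicate block, 6 genes were called on 12 arrays and 28 on the 6 control arrays, where 154 passed the unadjusted p and fold. The cause of these shifts was not tested. Of 180 named genes 170 kept their direction in every alternative and none that was called reversed. In these alternatives 49 single-gene results lost a call and 80 gained one. With 3 arrays in each group, the number of arrays limits the precision, and genes near background give bounds at best.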
